A study of Mus musculus with 12 samples.

Results

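The genes described here are 10 regulators of cell cycle exit: the cyclin-dependent kinase (CDK) inhibitors Cdkn1a (p21), Cdkn1b (p27), Cdkn1c (p57), Cdkn2a and Cdkn2c (p18), the retinoblastoma family Rb1, Rbl1 (p107) and Rbl2 (p130), cyclin D3 (Ccnd3) and the growth arrest gene Gadd45g. They were found on the array by symbol, through the RefSeq accession of each probe, with no threshold on their values, though the set was drawn up with earlier results of these data known. The array held 13 named probes for them among 41174 probes, with 2 probes each for Cdkn1b, Rb1 and Rbl2 and 1 for each other gene. All 10 were among the 12300 genes tested, where each gene stands for its named probe of highest mean signal.

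In a dividing cell, cyclin-CDK complexes phosphorylate the retinoblastoma proteins, which frees E2F factors to switch on the genes of DNA replication. CDK inhibitors stop that step, so that retinoblastoma proteins stay bound to E2F factors and the cell leaves the cycle. Skeletal muscle is a tissue in which this exit is permanent, and MyoD, a bHLH transcription factor able to start muscle differentiation in other cells, is known for raising p21 and Rb as muscle cells form.

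All 12 samples came from the C3H/10T1/2 line of mouse embryonic fibroblasts, which turns towards muscle when MyoD is supplied. They carried a control hairpin (shLuc) or a hairpin against Six4 (shSix4), a homeobox factor, were infected with retrovirus for MyoD (pBABE-MyoD) or the empty vector (pBABE), and 24 h later went into medium with 2% horse serum for 24 h. This gave 4 groups of 3 single-colour arrays, shLuc with empty vector, shLuc with MyoD, shSix4 with empty vector and shSix4 with MyoD, so every group had been infected and moved to low serum. The labels do not say whether a hairpin line was 1 clone, which share of cells took up virus, or whether replicates were separate cultures, so the p-values rest on the spread between samples that may be technical copies. The replicate number is also the slide: each of the 3 slides held 1 array of each group and had its own scan.

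The promoters of both Cdkn1a start sites and of Gadd45g are shown because these genes rose together with MyoD, and E-boxes, the sites that MyoD and related factors bind, lie in all 3 windows. The RefSeq promoter table (GRCm38.p6) held 12 windows for 8 of the 10 genes, all but Rb1 and Cdkn1c, each running from 250 bases before a start site to 50 after it. Capitals mark E-boxes (CANNTG, both strands), and positions count from the start site as base 1. The windows are Cdkn1a chr17:29090729-29091028 (+ strand), with CAGCTG at bases 38 to 43, Cdkn1a chr17:29093519-29093818 (+ strand), with CAGGTG at -187 to -182 and CAACTG at -4 to 2, and Gadd45g chr13:51846425-51846724 (+ strand), with CACGTG at -142 to -137, CATTTG at -104 to -99 and CAGCTG at -55 to -50.
Cdkn1a, first start site: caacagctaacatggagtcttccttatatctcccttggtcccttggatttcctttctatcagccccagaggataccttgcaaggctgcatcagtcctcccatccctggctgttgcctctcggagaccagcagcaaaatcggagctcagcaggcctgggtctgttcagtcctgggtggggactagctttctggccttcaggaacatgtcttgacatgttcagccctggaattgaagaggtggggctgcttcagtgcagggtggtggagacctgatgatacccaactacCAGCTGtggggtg
Cdkn1a, second start site: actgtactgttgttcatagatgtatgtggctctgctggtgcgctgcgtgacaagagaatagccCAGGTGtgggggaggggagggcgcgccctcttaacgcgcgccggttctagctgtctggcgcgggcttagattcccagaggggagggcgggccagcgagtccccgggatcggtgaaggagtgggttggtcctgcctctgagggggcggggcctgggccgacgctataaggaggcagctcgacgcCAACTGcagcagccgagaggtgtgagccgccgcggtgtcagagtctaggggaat
Gadd45g: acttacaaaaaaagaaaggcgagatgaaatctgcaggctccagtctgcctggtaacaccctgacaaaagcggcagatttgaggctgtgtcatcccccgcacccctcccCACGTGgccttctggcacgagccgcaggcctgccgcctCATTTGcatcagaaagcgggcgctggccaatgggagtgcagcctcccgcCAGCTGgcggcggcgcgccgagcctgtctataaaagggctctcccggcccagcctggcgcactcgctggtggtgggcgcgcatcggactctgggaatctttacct

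Such matches were frequent, and binding to them was not measured. Of 32851 mouse windows of the same length, 72.3% held CANNTG, 16.3% the form CAGCTG and 20.2% the form CAGGTG, both of which CANNTG includes. Among the genes described, E-boxes lay in 5 of 12 windows, those of Cdkn1a, Gadd45g, Cdkn2c and Rbl1. The MEF3 core TCAGGTT, a site that Six4 and its relatives bind, lay in 0 of 12 windows on either strand, and in 4.07% of all windows. Of 2 E2F sites, TTTCCCGC lay in 1 window, the Cdkn2a window at chr4:89294570-89294869 (- strand), and in 1.07% of all windows, while TTTGGCGC lay in none of the 12 and in 0.514% of all.

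Between 22318 and 27448 probes per array were well above background and 0 spots were saturated. Across genes, r was 0.955 to 0.993 within a group and 0.903 to 0.991 between groups. On each slide the shSix4 arrays had less Six4 signal than the shLuc arrays, by 0.10 to 1.48 log2 units with empty vector and 0.69 to 1.59 with MyoD, past the threshold in neither comparison, though with slide as a block it passed with MyoD (adjusted p = 0.0424). The summed signal of 6 skeletal muscle markers was, in units of the array's 75th percentile, 5.64 to 8.08 with empty vector against 476.5 to 721.1 with MyoD for shLuc, and 2.56 to 10.1 against 168.4 to 273.1 for shSix4. Ptprc, Pecam1, Cdh5, Kdr and Epcam, defining markers of leukocytes, endothelium and epithelium, were well above background on no array, while all 7 fibroblast markers were on every array.

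MyoD raised 4 of the 10 genes in shLuc cells and the same 4 in shSix4 cells: Cdkn1a, Cdkn1c, Rb1 and Gadd45g. In shLuc cells the rises were 2.53-fold for Cdkn1a, at least 17.8-fold for Cdkn1c, 4.53-fold for Rb1 and 2.90-fold for Gadd45g. In shSix4 cells they were 1.87-fold for Cdkn1a, 3.13-fold for Rb1 and 2.47-fold for Gadd45g. The size for Cdkn1c is uncertain there, as not all its MyoD arrays were well above background. Cdkn1c was tested only because of its signal on the shLuc arrays with MyoD. Over all genes tested, 4.72% rose and 1.56% fell in shLuc cells, and 2.79% rose and 0.106% fell in shSix4 cells (limma, Benjamini-Hochberg adjusted p under 0.05). The median change of the 10 was 0.37 log2 units in shLuc cells, beside -0.14 over all genes, and 0.17 in shSix4 cells, beside -0.06. With slide as a block, 3 members passed the threshold downwards in shLuc cells, beside 15.7% of all genes. Without the block, none did in either line. At an unadjusted p under 0.05, 6 members differed in shLuc cells, Cdkn2a lower and Ccnd3 higher beside those 4, as did 19.3% of all genes, and 4 in shSix4 cells, as did 9.77%. The values below are log2 signal minus the array's 75th percentile, on slides 1, 2 and 3 in that order, and a level is compared only with the same probe's level on other arrays.

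**Figure D1:**
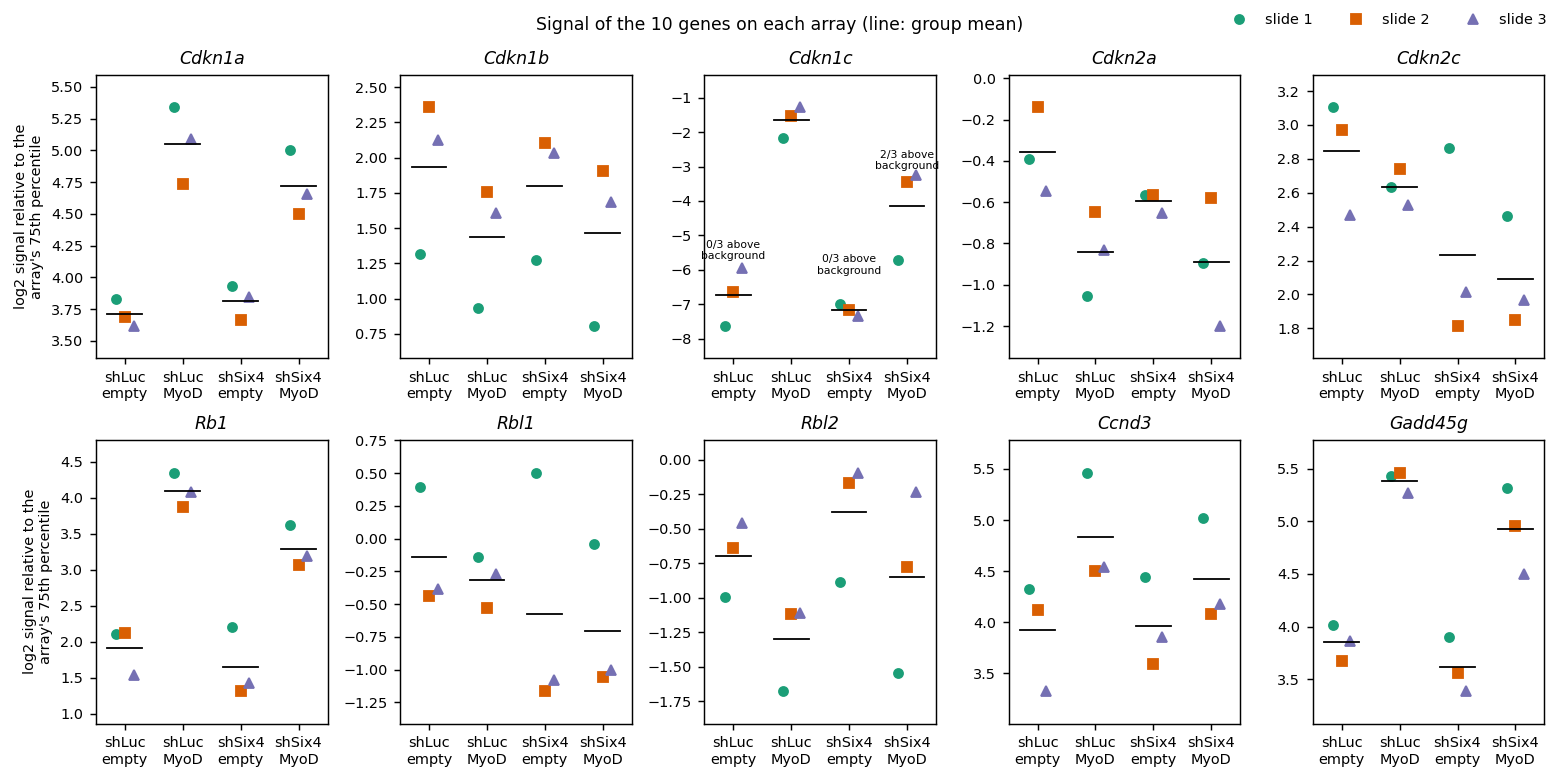
Log2 signal of each of the 10 genes on the 12 arrays, relative to the array's 75th percentile, by group (x axis), with the slide given by colour and shape and the mean of 3 arrays as a line. Cdkn1a, Cdkn1c, Rb1 and Gadd45g lie higher on every MyoD array than on every empty vector array, and Rbl1 lies highest on slide 1 in all 4 groups.

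Cdkn1a encodes p21, which binds cyclin-CDK complexes and blocks them. Its values were 3.83, 3.69 and 3.62 with empty vector and 5.34, 4.73 and 5.09 with MyoD in shLuc cells. In shSix4 cells they were 3.93, 3.67 and 3.85 with empty vector and 5.003, 4.50 and 4.65 with MyoD. All 6 MyoD arrays lay above all 6 empty vector arrays. The change was 1.34 ± 0.20 log2 units (SE, n = 3 per group) in shLuc cells, adjusted p = 0.00173, and 0.90 ± 0.20 in shSix4 cells, adjusted p = 0.0365. By slide the control line gave 1.51, 1.04 and 1.47 and the Six4 hairpin line 1.07, 0.83 and 0.81. The call in shSix4 cells was lost in 9 of 12 fits that left out an array, with adjusted p up to 0.174. The order of means was shLuc with MyoD, shSix4 with MyoD, shSix4 with empty vector, shLuc with empty vector, and neither pair that shared a vector passed the threshold.

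Cdkn1c encodes p57, a CDK inhibitor of the same family whose gene is imprinted. With empty vector it was well above background on none of 6 arrays. In shLuc cells its values were -7.61, -6.65 and -5.94 with empty vector and -2.16, -1.54 and -1.28 with MyoD. The shSix4 arrays read -6.98, -7.16 and -7.33 with empty vector and -5.71, -3.44 and -3.24 with MyoD. All 3 shLuc arrays with MyoD were well above background, and 2 of 3 shSix4 arrays with MyoD were, all but that on slide 1. The group means, empty vector then MyoD, were -6.73 and -1.66 for shLuc and -7.16 and -4.13 for shSix4, adjusted p = 0.000308 and 0.0184. The gene was tested only because all shLuc arrays with MyoD were well above background, so its inclusion rests on the group where it is high. With no such filter on dim probes, adjusted p was 0.000622 and 0.0329. Since the empty vector signal is only a bound, the rise in shLuc cells is given as at least 17.8-fold. This is against the higher of the probe's own signal and the lowest signal well above background on each empty vector array. That lowest signal is taken over all probes and is not this probe's own detection limit. The bound rests on that floor, as does the bound for Myog below. The same reckoning gave 2.38-fold in shSix4 cells. That value is not a lower bound, since the MyoD array on slide 1 was itself not well above background. Both values are for the processed signal. The median spot signal was also used, after a normexp background correction (added offset 50) fitted without the lowest spots. The change was then 1.92 log2 units in shLuc cells, adjusted p = 0.00114, and 0.73 in shSix4 cells, adjusted p = 0.431. In shSix4 cells the call was also lost in 4 of 12 fits that left out an array.

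Cdkn1b encodes p27, the other inhibitor of this family. Its values were 1.32, 2.36 and 2.13 with empty vector and 0.94, 1.76 and 1.61 with MyoD in shLuc cells. For shSix4 they were 1.27, 2.10 and 2.03 with empty vector and 0.81, 1.91 and 1.69 with MyoD. The groups overlapped, slide 1 was lowest in all 4 groups, and on every slide the MyoD array lay below the empty vector array of the same line. The change was -0.50 ± 0.38 in shLuc cells, adjusted p = 0.540, and -0.33 ± 0.38 in shSix4 cells, adjusted p = 0.958. With slide as a block it passed the threshold in shLuc cells at adjusted p = 0.0101, as did 15.7% of all genes in that direction. The second probe read -0.65 ± 0.47 and -0.89 ± 0.47 in the 2 lines and passed the threshold in neither, with or without the block, and on it slide 1 was highest under empty vector.

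Cdkn2c and the INK4 product of Cdkn2a are inhibitors that bind CDK4 and CDK6 and keep D cyclins from them. The Cdkn2a locus also encodes Arf. Whether the Cdkn2a probe reads the INK4 transcript, the Arf transcript or both was not tested. Cdkn2a read -0.39, -0.14 and -0.55 with empty vector and -1.05, -0.65 and -0.83 with MyoD in shLuc cells. In shSix4 cells it read -0.56, -0.57 and -0.65, then -0.89, -0.58 and -1.20. The shLuc groups did not overlap, as for 26.2% of genes with a value on all of these arrays, and the shSix4 groups did. The change was -0.48 ± 0.20 in shLuc cells, adjusted p = 0.211, or 0.0311 with slide as a block, and -0.30 ± 0.20 in shSix4 cells, adjusted p = 0.801. Cdkn2c read 3.10, 2.97 and 2.47 with empty vector and 2.64, 2.74 and 2.53 with MyoD in shLuc cells. With the Six4 hairpin it read 2.86, 1.82 and 2.01, then 2.46, 1.85 and 1.97. Its groups overlapped in both lines. The change was -0.21 ± 0.29 in shLuc cells, adjusted p = 0.762, with a 95% interval of -0.85 to 0.42, and -0.14 ± 0.29 in shSix4 cells, adjusted p = 0.997.

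**Figure D2:**
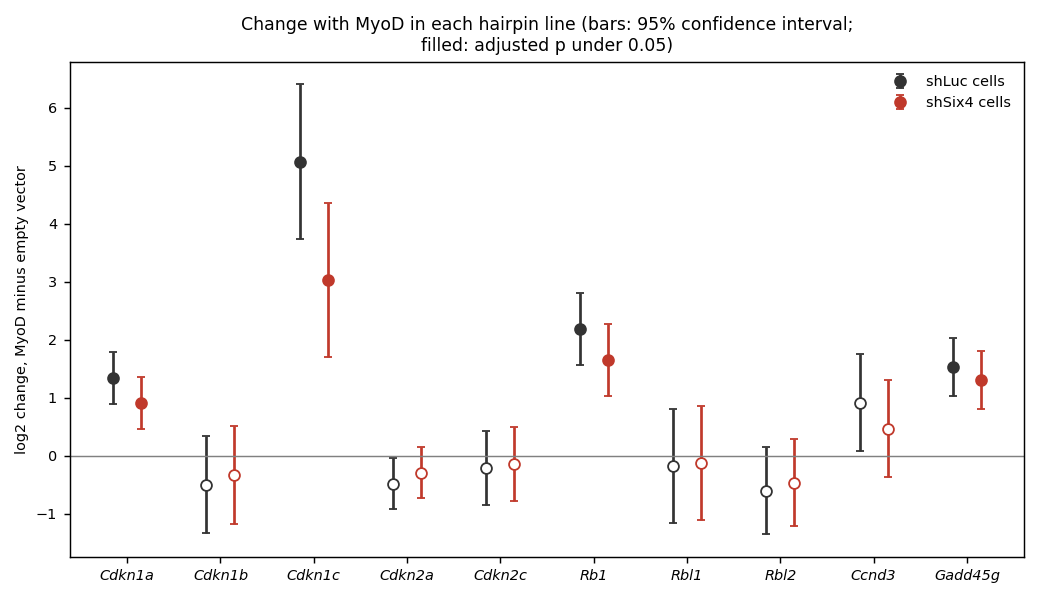
Log2 change with MyoD against empty vector for each of the 10 genes (x axis) in shLuc cells and shSix4 cells, as the estimate from 3 arrays per group with its 95% confidence interval. Filled points passed an adjusted p of 0.05: Cdkn1a, Cdkn1c, Rb1 and Gadd45g in both lines, at 1.34, 5.07, 2.18 and 1.54 for shLuc and 0.90, 3.03, 1.64 and 1.31 for shSix4. The Cdkn1c estimates use empty vector signals below background, and that for shSix4 also uses a MyoD array not well above background.

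Rb1, the retinoblastoma protein itself, was the member of its family that rose. Its values were 2.10, 2.12 and 1.54 with empty vector and 4.35, 3.87 and 4.08 with MyoD in shLuc cells. In shSix4 cells they were 2.21, 1.31 and 1.42 with empty vector and 3.63, 3.07 and 3.19 with MyoD. All MyoD arrays lay above all empty vector arrays, and the 3 shLuc arrays with MyoD above the 3 shSix4 arrays with MyoD. The change was 2.18 ± 0.28 in shLuc cells, adjusted p = 0.000529, and 1.64 ± 0.28 in shSix4 cells, adjusted p = 0.00645. By slide it was 2.25, 1.75 and 2.54 in the control line and 1.42, 1.75 and 1.76 in the Six4 hairpin line, and both calls held in 12 of 12 fits that left out an array. A second probe gave 2.32 ± 0.56 in shLuc cells, adjusted p = 0.0404 in a fit of all probes. There it was well above background on 2 of the 3 empty vector arrays, so that size is uncertain. In shSix4 cells it was well above background on none of the empty vector arrays and 2 of the MyoD arrays, so no size is given. Its means there were -5.66 and -4.38, adjusted p = 0.563. The probe was kept only through the shLuc arrays with MyoD, where it is high. That probe's shLuc arrays with MyoD read -3.89, -3.28 and -1.28, so the array on slide 3 stood apart.

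Rbl1 and Rbl2, the other members of the retinoblastoma family, did not pass the threshold with MyoD. Rbl1, p107, is itself a gene that E2F switches on in dividing cells. It read 0.40, -0.43 and -0.39 with empty vector and -0.14, -0.53 and -0.27 with MyoD in shLuc cells, a change of -0.17 ± 0.44, adjusted p = 0.888. In shSix4 cells it read 0.50, -1.16 and -1.07, then -0.04, -1.06 and -1.01, a change of -0.12 ± 0.44, adjusted p = 0.998. The array on slide 1 was highest in every group. Rbl2, p130, is the pocket protein best known from resting cells. It read -0.998, -0.64 and -0.46 with empty vector and -1.68, -1.12 and -1.11 with MyoD in shLuc cells, groups that did not overlap. In shSix4 cells it read -0.88, -0.17 and -0.09, then -1.55, -0.77 and -0.23. The change was -0.60 ± 0.34 in shLuc cells, adjusted p = 0.387, and -0.47 ± 0.34 in shSix4 cells, adjusted p = 0.838. With slide as a block the shLuc change passed the threshold, adjusted p = 0.0229, but the gene's second probe, at -0.40 ± 0.24, did not pass it with the block, adjusted p = 0.193.

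Ccnd3 encodes cyclin D3, the D cyclin known to persist in differentiated muscle, where it joins Rb. Its values were 4.33, 4.12 and 3.33 with empty vector and 5.46, 4.50 and 4.55 with MyoD in shLuc cells. With the Six4 hairpin they were 4.44, 3.60 and 3.85 with empty vector and 5.02, 4.08 and 4.18 with MyoD. The shLuc groups did not overlap, the shSix4 groups did, and the MyoD array was the higher on all 3 slides in both lines. The change was 0.91 ± 0.38 in shLuc cells, adjusted p = 0.216, and 0.46 ± 0.38 in shSix4 cells, adjusted p = 0.883. With slide as a block the shLuc change passed the threshold at adjusted p = 0.00904, as did 9.89% of all genes upwards.

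Gadd45g encodes a small protein that binds p21 and stress kinases and is induced as cells stop dividing. Its values were 4.02, 3.67 and 3.86 with empty vector and 5.43, 5.46 and 5.27 with MyoD in shLuc cells. In shSix4 cells they were 3.91, 3.56 and 3.39 with empty vector and 5.32, 4.96 and 4.50 with MyoD. No empty vector array reached the lowest MyoD array. The change was 1.54 ± 0.23 in shLuc cells, adjusted p = 0.00150, and 1.31 ± 0.23 in shSix4 cells, adjusted p = 0.00731. The slides gave 1.41, 1.79 and 1.41 for shLuc and 1.41, 1.40 and 1.11 for shSix4, and both calls held in 12 of 12 fits that left out an array.

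Over all 10 members, groups that did not overlap were found for 7 in shLuc cells, beside 26.2% of all genes, and for 4 in shSix4 cells, beside 14.5%. With slide as a block, 5 members rose and 3 fell in shLuc cells, beside 9.89% and 15.7% of all genes, and the 4 named above rose in shSix4 cells, beside 5.7% of all genes. When a whole slide was left out, which leaves 2 arrays per group, 4 members were called in shLuc cells without slide 1, 2 without slide 2 (Cdkn1a and Rb1) and 2 without slide 3 (Cdkn1c and Gadd45g). In shSix4 cells 3 were called without slide 1, all but Cdkn1a, and 0 without slide 2 or slide 3.

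Between the hairpin lines, 0 of the 10 members passed the threshold with MyoD in both (limma), beside 0.228% of all genes in either direction. At an unadjusted p under 0.05, 2 members, Cdkn1c and Rb1, were lower in shSix4 cells, and 7.8% of all genes differed. In all, 8 members had a lower mean in shSix4 cells and the median difference was -0.40 log2 units, beside 0.03 over all genes. Cdkn1c had an adjusted p of 0.149, and on slides 2 and 3 it differed by -1.90 and -1.96. On slide 1 its shSix4 array was not well above background, so no size is given there. Fits without a whole slide, chosen after seeing the data, leave 2 arrays per group. Without slide 1 the difference was -1.93, adjusted p = 0.0209. Without slide 2 or slide 3 adjusted p was 0.933 and 0.914, and 0 of 12 fits that left out 1 array called it. Rb1 differed by -0.80 ± 0.28, adjusted p = 0.390, and by -0.72, -0.80 and -0.89. The groups of both genes did not overlap, nor did those of Cdkn2c, as for 12% of all genes. With slide as a block Cdkn1c and Rb1 passed the threshold, at adjusted p = 0.0183 and 0.0392, beside 2.59% of all genes downwards. In the blocked fit of all probes Rb1 did not pass it, adjusted p = 0.0577, and its second probe, well above background on 2 of 3 shSix4 arrays, read -1.56 ± 0.56, adjusted p = 0.502, or 0.115 with the block.

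The other members differed less with MyoD in both lines. Cdkn1a differed by -0.33 ± 0.20 (adjusted p = 0.864), Gadd45g by -0.46 ± 0.23 (adjusted p = 0.724) and Ccnd3 by -0.41 ± 0.38 (adjusted p = 0.999), each lower on all 3 slides. Cdkn2c differed by -0.54 ± 0.29, adjusted p = 0.789. Cdkn1b, Cdkn2a, Rbl1 and Rbl2 lay between -0.39 and 0.45, with adjusted p of 0.967 or more. Readouts of conversion also differed. Under MyoD the muscle marker sums of shSix4 cells lay below all those of shLuc cells. Myh3, the embryonic myosin heavy chain, differed by -2.40 ± 0.37 (adjusted p = 0.0304). Myod1, the gene that the retrovirus supplied, differed by -1.45 ± 0.81 (adjusted p = 0.837), with -2.24, -0.64 and -1.46 on the slides. By slide, Myh3 differed by -3.24, -2.03 and -1.93, and Myog, the muscle factor myogenin, by -0.96, -1.50 and -0.98 (adjusted p = 0.192). Myh3 and Myod1 had the largest difference on slide 1 and Myog on slide 2. The part of MyoD dose or of conversion in the differences of Cdkn1c and Rb1 was not tested, and in such bulk RNA fewer converted cells and less RNA per cell cannot be told apart.

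**Figure D3:**
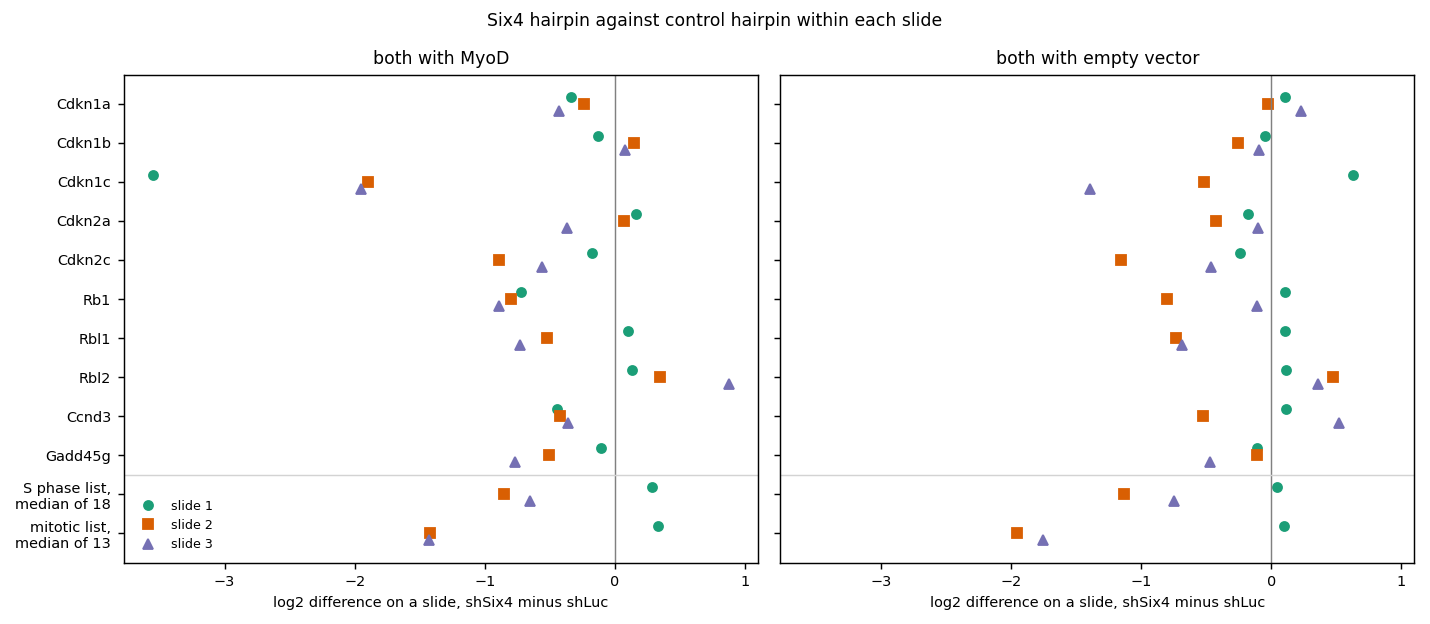
Log2 difference between shSix4 and shLuc arrays on the same slide (x axis) for the 10 genes and for the medians of 18 S phase and 13 mitotic genes, with MyoD (left) and with empty vector (right). Rb1 with MyoD lies between -0.89 and -0.72 on the 3 slides, while Rbl1 and both gene groups are near or above 0 on slide 1 and below 0 on slides 2 and 3. Cdkn1c was not well above background on the shSix4 MyoD array of slide 1 or on any empty vector array, so its points there are not measured differences.

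With empty vector in both lines, 0 members passed the threshold or an unadjusted p under 0.05 (limma), beside 0.0569% and 4.45% of all genes. Cdkn2c differed by -0.62 ± 0.29 and Rbl1 by -0.44 ± 0.44, while Cdkn1c was well above background on none of these arrays and is given no difference. Cdkn2a was the member whose groups did not overlap, as for 8.33% of all genes, with a difference of -0.24 ± 0.20. Cdkn1a differed by 0.10 ± 0.20, with a 95% interval of -0.34 to 0.55, and Ccnd3 by 0.04 ± 0.38. Rbl1 differed by 0.11 on slide 1 and by -0.73 and -0.69 on slides 2 and 3, and Cdkn2c by -0.24, -1.15 and -0.46. The 13 mitotic genes had the same split, with a median difference of 0.10, -1.95 and -1.75 on the slides, and so had 18 S phase genes, at 0.05, -1.13 and -0.75. With MyoD the mitotic medians were 0.33, -1.42 and -1.43. Slides 2 and 3 thus differ from slide 1 in the cell cycle genes of the hairpin lines, and the part of this in the members' differences was not tested.

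The difference between the MyoD responses of the 2 lines was tested on its own, and 0 of 10 members and 0% of all genes passed the threshold (limma). At an unadjusted p under 0.05 there were 249 genes, 2.02% of all, Cdkn1c among them. No size is given for Cdkn1c, since its signal was a bound on all 6 empty vector arrays and on 1 shSix4 array with MyoD. The MyoD response in shSix4 cells minus that in shLuc cells was -0.54 log2 units for Rb1 (95% interval -1.41 to 0.34), -0.44 for Cdkn1a (-1.07 to 0.19) and -0.23 for Gadd45g (-0.94 to 0.48). For Cdkn1a the difference was below 0 on all 3 slides, at -0.44, -0.21 and -0.66, while for Rb1 it was 0.00 on slide 2. The intervals of these 3 genes include 0 as well as sizeable differences, so equal responses are not shown.

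Around the members, 9 lists of pathway genes were measured. Of 5 other CDK inhibitors and Gadd45 genes tested, Gadd45b, a relative of Gadd45g, rose in shLuc cells by 1.09 ± 0.20, adjusted p = 0.00657, and read 0.82 ± 0.20 in shSix4 cells, adjusted p = 0.0575, or 0.00202 with slide as a block. Its values in shLuc cells were 2.82, 2.37 and 2.79 with empty vector and 3.86, 3.59 and 3.79 with MyoD, groups that did not overlap. Cdkn2b, the INK4 inhibitor p15, is named after its values were seen: it read -0.83 in shLuc cells and passed the threshold there with slide as a block, adjusted p = 0.00231, and read -0.61 in shSix4 cells, where the block gave 0.0222. Of 10 E2F and DP factors, some of which are partners that retinoblastoma proteins hold, 1 rose in each line. This was E2f2, by 4.13 ± 0.61 in shLuc cells, adjusted p = 0.00155, and 4.18 ± 0.61 in shSix4 cells, adjusted p = 0.00227. Its values were -0.36, -1.54 and -1.54 with empty vector and 3.52, 2.55 and 2.86 with MyoD in shLuc cells, and -0.59, -2.84 and -2.79, then 2.96, 1.61 and 1.75 in shSix4 cells.

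Other lists of cell cycle genes held none that passed the threshold with MyoD. The cyclin D1 gene Ccnd1 had no named probe and was not tested. In each line 0 of 15 cyclins, CDKs and Cdc25 phosphatases, 0 of 7 genes of the MuvB complex and its partners, 0 of 18 S phase genes and 0 of 13 mitotic genes were called (limma). At an unadjusted p under 0.05 there was 1 in all, the phosphatase gene Cdc25b in shSix4 cells (0.76 ± 0.28, adjusted p = 0.324). The blocked fit called 1 gene of these lists, the cyclin E gene Ccne1 in shSix4 cells (0.94, adjusted p = 0.0487), named after its values were seen. Their median changes were 0.05, -0.07, 0.12 and -0.07 log2 units in shLuc cells, beside -0.14 over all genes, and 0.29, 0.05, 0.43 and 0.34 in shSix4 cells, beside -0.06. The lowest unadjusted p in shLuc cells was that of Mcm2, a replicative helicase subunit, for the S phase list (0.75 ± 0.53, adjusted p = 0.499) and that of Cenpa, the centromeric histone, for the mitotic list (0.27 ± 0.65, adjusted p = 0.881). Mitotic genes varied by slide within a group: Kif11, a spindle motor, read -1.01, -2.10 and -2.57 in shSix4 cells with empty vector and -0.90, -0.65 and -0.33 in the matching shLuc arrays, a difference of -1.27 ± 0.39, adjusted p = 0.739.

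Among regulators and partners of the members, Id2, an inhibitor of basic helix-loop-helix factors that also binds Rb, was the 1 of 16 regulators that rose in shLuc cells, by 0.93 ± 0.24, adjusted p = 0.0426. It read 0.72 ± 0.24 in shSix4 cells, adjusted p = 0.225, or 0.0178 with slide as a block. None of 10 genes for turnover of CDK inhibitors, such as Cul4a (0.22 ± 0.15, adjusted p = 0.487, in shLuc cells), passed the threshold or an unadjusted p under 0.05 in either line. Of 9 partners of Rb and cyclin D3, Myog (means -5.92 and 7.93, adjusted p = 1.39e-09), Myod1 (4.03 ± 0.90, adjusted p = 0.0315) and Mef2c (1.49 ± 0.36, adjusted p = 0.0304) rose in shLuc cells. The Myog probe was well above background on 1 of the 3 shLuc arrays without MyoD, so the size of its rise is uncertain. These 3 are muscle transcription factors, but Myod1 is the gene that the retrovirus supplied. Whether its probe reads the supplied copy, the cell's own gene or both was not tested. The Myod1 fit had no value for slide 3 under empty vector, where the spots were marked as outliers. In shSix4 cells Myog rose, by at least 4594-fold against empty vector arrays below background (means 6.78 and -6.64, adjusted p = 1.96e-09), while Myod1 read 2.10 ± 0.90 (adjusted p = 0.482) and Mef2c 0.41 ± 0.36 (adjusted p = 0.906). Between the lines, 0 of 101 genes in the 9 lists passed the threshold with either vector (limma). With MyoD 6 had an unadjusted p under 0.05, beside 7.8% of all genes. With empty vector 7 did, beside 4.45% of all genes, and 5 of these 7 were mitotic genes. The blocked fit called 3 of the 101 genes with MyoD, beside 533 of all 12300 genes tested. Gadd45b (-0.53, adjusted p = 0.0368) and Mef2c (-1.54, adjusted p = 0.00884) were lower in shSix4 cells. Myc, a driver of cell growth, was higher (0.66, adjusted p = 0.0204), and each had 1 sign on all 3 slides.

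**Figure D4:**
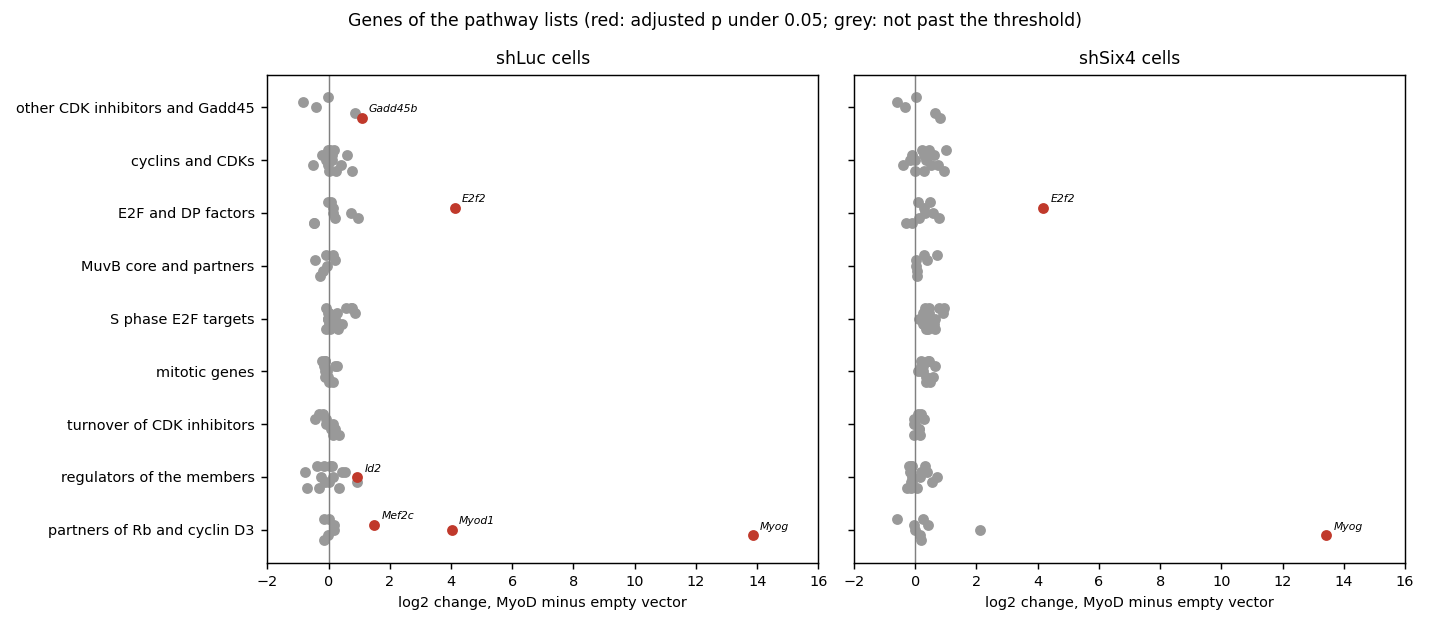
Log2 change with MyoD against empty vector of each tested gene (a point) of 9 pathway lists (rows), in shLuc cells (left) and shSix4 cells (right), red where the adjusted p was under 0.05. Gadd45b, E2f2, Id2, Mef2c, Myod1 and Myog rose in shLuc cells and E2f2 and Myog in shSix4 cells, while all cyclins, CDKs, S phase and mitotic genes lie between -0.51 and 1.01.

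Genes whose values over the 12 arrays were most like those of the 4 members that rose were sought among 12144 genes with a value on every array, as a description. The 12 points share the 2 vectors and 3 slides. For Cdkn1a they were Prss46 (Pearson r = 0.992), Tnnc1, troponin C of slow muscle (r = 0.990), and Ccdc134 (r = 0.989). For Rb1 they were Des, the muscle intermediate filament desmin (r = 0.991), Zbtb18 (r = 0.988) and Chrnd, a subunit of the muscle acetylcholine receptor (r = 0.987). For Cdkn1c they were Fam78a (r = 0.984), Filip1 (r = 0.977) and Cacna1s, the calcium channel of the muscle T tubule (r = 0.975). For Gadd45g they were Cdk5r1, an activator of CDK5 (r = 0.983), Palmd (r = 0.976) and E2f2 (r = 0.972). Like Cdkn1c, several of these genes were well above background on only some arrays, among them Fam78a on 5, Prss46 on 6 and Des on 7 of 12.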

How the data were processed

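Expression was measured on 12 one-colour arrays, 3 per group, with groups taken from the sample titles; the sample description field names another cell line, contradicts the other labels and was not used. The deposited scanner files hold Cy3 intensity, background-corrected by the authors with Agilent Feature Extraction (11.5.1.1 per the file headers, 10.5.1.1 per the submitters' processing notes) and not normalized between arrays. The authors' deposited table of log2 values, levelled between arrays by a method not given in the sources used here, followed log2 of each array's own signal at r 0.9994 to 0.9999 over 3867 probes, with column medians of 8.66 to 8.72, and served as an alternative.

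From log2 of the processed signal the array's 75th percentile was subtracted. Control spots and outlier-marked spots were left out and spots of a probe averaged. Of 41174 probes, 24000 were kept, those marked well above background throughout a group (3 of 3 arrays). Probes were named through RefSeq accessions (GRCm38.p6, for names and promoter windows only; the grid uses an older build). The test was limma (version 3.58.1, R 4.3.3) with 1 mean per group over 12 arrays, 8 residual degrees of freedom and 2.85 prior ones, in 5 comparisons, with Benjamini-Hochberg adjustment over 12300 genes. Errors are limma standard errors, and the number of arrays limits the precision.

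Same-numbered arrays share a slide, per the file headers, and their deviations from the group means correlated at 0.278 to 0.819 in 18 of 18 pairs (over 0.1), so the numbers pair the samples; the fit with slide as a block is given where it changes a call of a named gene, and for the other list genes as counts. Named genes are all 10 members and, per list and comparison, up to 4 genes past the threshold or the 1 of lowest unadjusted p, shown here for the main comparisons. The members and lists were chosen with earlier results of these data known. Alternatives were the background correction, scaling, filter, probe choice, outlier marks, block, groups in the fit, the authors' table and each array left out. The scanner files hold no mean spot signal, so normexp used the median spot signal. A normexp fit without the lowest 0.1% of spots and leaving out each slide were chosen after seeing the data. The test was checked on simulated data.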

Additional observations from a re-analysis of the deposited data

How the results depend on the processing

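In shLuc cells, where 4 of 10 members were called, 1 was called with normexp, 8 of 10 with the replicate block (slide), and 2 each without slide 2 and without slide 3. In shSix4 cells, beside 4, 0 were called with normexp, 2 with normexp fitted without the lowest spots, 2 with only probes well above background on all arrays (9 members tested, without Cdkn1c), 0 with only the 2 groups of the comparison in the fit, 0 without slide 2 and 0 without slide 3. The authors' deposited table held 4 of the 10 members and, of those called, Rb1 alone, which was called there in both lines (1 member each). Between the lines with MyoD, 0 became 2 with the replicate block, 1 with normexp fitted without the lowest spots and 1 without slide 1, Cdkn1c in each, with Rb1 under the block. The block changed no other call of a member. Leaving out 1 array gave 4 to 4 members in shLuc cells and 2 to 4 in shSix4 cells, 2 without the shSix4 empty vector array of replicate 2 or of replicate 3 or the shSix4 MyoD array of replicate 3, and 0 to 0 in the other 3 comparisons. Quantile normalization, no filter, the mean of a gene's probes and outlier spots kept left every count of members within 1.5 times, and no called value changed sign.

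The normexp fit followed single spots with a bright local background on 3 arrays, where it set the background at -852.7, -621.4 and -148.9, against -10.6 to -6.56 on the other 9; without the lowest 0.1% of spots it lay between -6.5 and -3.33 on all 12. It called 86 genes in shLuc cells and 49 in shSix4 cells, beside 772 and 356 in the main setting. The block called 3153, 1021, 533 and 79 genes in the 4 comparisons of groups, beside 772, 356, 28 and 7, and moved the share of higher calls from 75.1% to 38.6% in shLuc cells. Among the lists, the block raised the genes called in shLuc cells from 1 to 3 for other CDK inhibitors and Gadd45, 1 to 5 for E2F and DP factors and 1 to 3 for regulators, and in shSix4 cells from 0 to 2, 1 to 3 and 0 to 2, with 0 to 1 for cyclins and CDKs and for S phase genes. Between the lines with MyoD it raised them from 0 to 1 for other inhibitors, regulators and partners. Gadd45b in shLuc cells was not called with normexp, and quantile normalization raised the other inhibitors called in shSix4 cells from 0 to 1. Id2 was not called with normexp, quantile normalization or no filter, and 1 of 3 partners was called with normexp or no filter. The cause of these changes was not tested other than for normexp. Where Cdkn1c is below background, its change is limited by the signal over background.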
